A study of Oryza sativa with 6 samples.

Results

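HD1 (LOC4340746, annotated as zinc finger protein HD1) and HD3A (LOC4340185, annotated as protein HEADING DATE 3A) are a pair of rice genes of the photoperiodic flowering pathway. They are 2 of the 2995 genes in the deposited table of leaf RNA-seq values, and were found there by their locus numbers. Both were chosen from the FPKM values (fragments per kilobase of transcript scaled to the mapped fragments of the library) described here, and each gene in the table had been called up or down by the authors between the same libraries. The difference of HD1 and HD3A between the lines is therefore a description, and no p-value is given for it. The libraries came from leaves of PIF4v3m (3 libraries) and of WYG7 (3 libraries), both grown in pots under fluctuating light combined with drought (FL-DS). WYG7 is the rice line that was edited, and PIF4v3m is the label of a line in the WYG7 background from which CRISPR/Cas9 removed a nucleotide at the v3 SNP of the *OsPIL13* promoter. The paper names that line *PIL13*v3m; the labels themselves do not link these names, and a single edited line stands for the mutation. The labels give plants of 3 weeks, whereas in the paper's methods FL-DS began at a later age, so the age of the leaves is not settled. This bears on flowering genes, whose levels change with plant age. No collection time is recorded, and levels of many genes of this pathway follow the time of day, so line and collection time cannot be told apart.

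Rice is a short-day plant in which day length is read in the leaf. HD1 is the rice counterpart of *Arabidopsis* CONSTANS, a nuclear protein with B-box zinc fingers and a CCT domain, and is known to promote *HD3A* expression under short days and to repress it under long days. HD3A is a florigen, a small protein of the phosphatidylethanolamine-binding protein (PEBP) family. It is made in the phloem of leaves, moves to the shoot apex and there, together with 14-3-3 proteins and the bZIP factor FD1, turns on MADS-box genes of the floral transition. The growth chamber methods of the paper describe days and nights of equal length.

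HD1 was higher in PIF4v3m than in WYG7, and HD3A was lower. HD1 stood at 6.55, 6.71 and 5.15 FPKM in the PIF4v3m libraries (replicates 1, 2 and 3), against 0.519, 0.190 and 0.426 FPKM in the WYG7 libraries. The lowest PIF4v3m value lay well above the highest WYG7 value, and each WYG7 value was under 1 FPKM. The means were 6.14 ± 0.861 FPKM in PIF4v3m and 0.378 ± 0.169 FPKM in WYG7 (SD, n = 3 each), a ratio of 16.2. On the log2(FPKM + 1) scale the difference was 2.37 (standard error 0.15), which understates the change because of the low WYG7 level. With an offset of 0.1 or 0.01 FPKM in place of 1, the difference was 3.77 or 4.09.

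HD3A stood at 7.15, 12.1 and 8.95 FPKM in PIF4v3m replicates 1, 2 and 3, against 111, 86.2 and 98.9 FPKM in the WYG7 libraries. Again the lines did not overlap, and the WYG7 library with the least HD3A had several times the level of the PIF4v3m library with the most. The means were 9.40 ± 2.50 FPKM in PIF4v3m and 98.6 ± 12.3 FPKM in WYG7 (SD, n = 3 each), and WYG7 exceeded PIF4v3m by a ratio of 10.5. The log2 difference was -3.28 (standard error 0.18). In bulk leaf RNA, fewer cells that express a gene and less of its RNA per cell cannot be told apart. Of all listed genes 99.4% had no overlap between the lines, as the authors had selected them for differing, so the separation of the libraries does not set HD1 or HD3A apart.

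**Figure D1:**
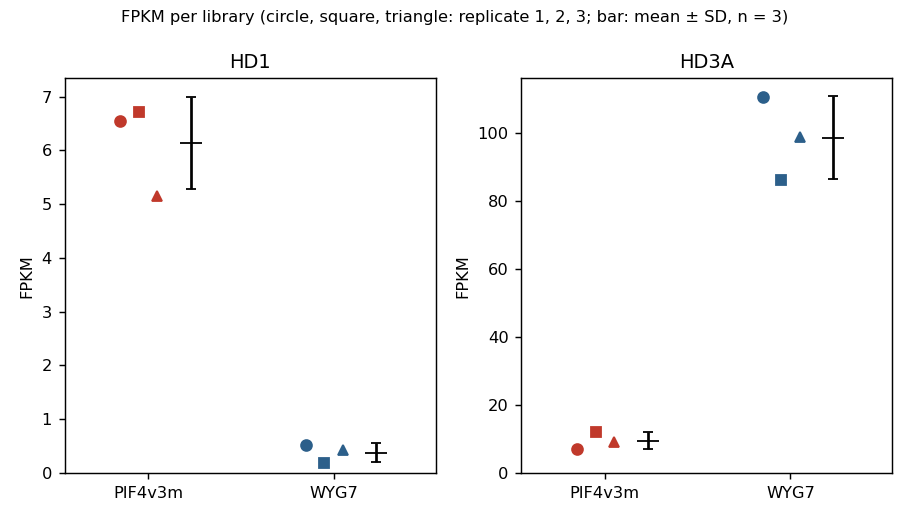
FPKM of HD1 and HD3A (vertical axes, each starting at 0) in the 3 PIF4v3m libraries (red) and the 3 WYG7 libraries (blue), with the mean and SD of each line in black. HD1 lies between 5.15 and 6.71 FPKM in PIF4v3m and under 1 FPKM in WYG7, whereas HD3A is lower in each PIF4v3m library than in any WYG7 library.

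As FPKM is scaled by transcript length, the levels of both genes can be set side by side within a library. The ratio of the HD3A level to the HD1 level was 1.09, 1.80 and 1.74 in PIF4v3m, against 213, 453 and 232 in WYG7. HD3A was thus the more abundant transcript in each of the 6 libraries, by a wide margin in WYG7 and by a narrow one in PIF4v3m. In PIF4v3m replicate 1 the levels of HD3A and HD1 were closest to each other. The high ratio of WYG7 replicate 2 goes with its HD1 level of 0.190 FPKM, the lowest of all libraries. Among the 2995 listed genes ordered by mean level, HD1 was number 1055 in PIF4v3m and number 2769 in WYG7, and HD3A was number 851 in PIF4v3m and number 92 in WYG7. By the size of the log2 difference with the offset of 1 FPKM, HD1 had the 87th largest increase and HD3A the 35th largest decrease. These ranks turn on the offset, as HD1 was number 35 and HD3A number 132 with an offset of 0.1 FPKM.

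The spread among libraries of a line also differed between the genes. Relative to the mean, the SD of HD1 was 14% in PIF4v3m and 44.8% in WYG7, and that of HD3A was 26.6% in PIF4v3m and 12.4% in WYG7. In each case the larger relative spread stood in the line with the lower level. Read counts were not analysed here, so how much of the spread at low FPKM is counting error was not estimated. Within WYG7 the libraries had the same order for both genes, with replicate 1 highest and replicate 2 lowest. Within PIF4v3m they did not, as replicate 2 was highest for both genes, while the lowest library was replicate 3 for HD1 and replicate 1 for HD3A.

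**Figure D2:**
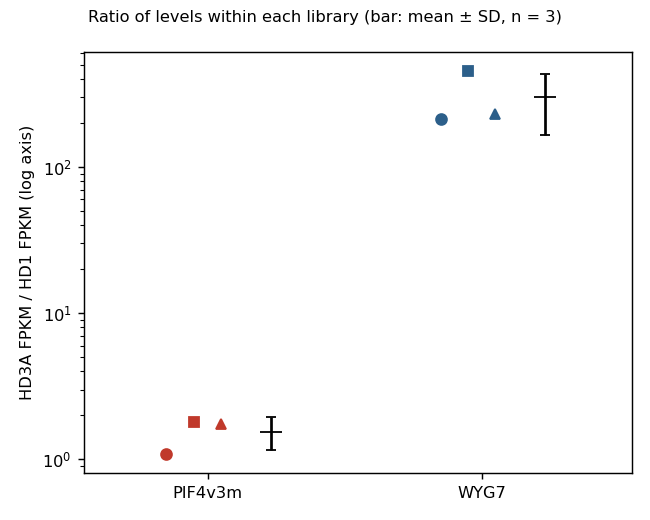
Ratio of the FPKM of HD3A to that of HD1 (vertical axis, log scale) within each library, with the mean and SD of each line in black. The ratio is 1.09 to 1.80 in PIF4v3m and 213 to 453 in WYG7.

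HD3A was set beside other genes annotated in the PEBP family. Of 7 such genes described here, 2 were higher and 5 were lower in PIF4v3m by limma at an adjusted p under 0.05. Over all listed genes 45.8% were called higher and 54.1% lower, in all 99.9%, so that a call by itself says little. HD3A had the lowest log2 difference of the 7 with the offset of 1 FPKM, which compresses the change of low genes, but not with smaller offsets. How reads that fit more than 1 gene of the family were assigned is not given in the sources used here, so the separate levels of close relatives are less certain. A gene annotated as HEADING DATE 3A-like (LOC107276171) stood at 0.121, 0.488 and 0.142 FPKM in PIF4v3m, against 4.73, 6.55 and 7.01 FPKM in WYG7. Its log2 difference was -2.50 with the offset of 1 FPKM and -4.28 with an offset of 0.1 FPKM, where that of HD3A was -3.40. A gene annotated as FLOWERING LOCUS T (LOC4336228) was near the lower end of the table, at 0.0389, 0 and 0.0210 FPKM in PIF4v3m and 0.375, 0.406 and 0.518 FPKM in WYG7. Another of that annotation (LOC4341272) averaged 1.16 ± 0.567 FPKM in PIF4v3m and 3.88 ± 1.34 FPKM in WYG7 (SD, n = 3 each). All of these were lower in PIF4v3m, as HD3A was, although from levels far under that of HD3A in WYG7.

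MFT1 (LOC4341107), whose *Arabidopsis* relative MOTHER OF FT AND TFL1 acts in seed germination, stood at 0.700, 0.248 and 0.850 FPKM in PIF4v3m, against 4.42, 0.887 and 5.33 FPKM in WYG7. Replicate 2 was lowest in both lines, and the WYG7 library of that number lay just above the highest PIF4v3m value. Without PIF4v3m replicate 2 the gene was no longer called (adjusted p = 0.0554, limma), while it was called when any other single library was left out. Opposite to HD3A, the PEBP gene LOC4324585 stood at 16.6, 18.5 and 18.7 FPKM in PIF4v3m, against 7.55, 6.10 and 8.70 FPKM in WYG7. Another gene annotated as FLOWERING LOCUS T (LOC9268282) stood at 21.8, 26.8 and 9.45 FPKM in PIF4v3m, against 5.11, 3.51 and 6.66 FPKM in WYG7. Both rose in PIF4v3m, the second with a wide spread, as its replicate 3 lay far below the other PIF4v3m values.

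The order of levels within the family therefore differed between the lines. HD3A was the most abundant of the 7 transcripts in each WYG7 library and the 3rd in each PIF4v3m library, after LOC4324585 and LOC9268282. HD3A held 14.9%, 20.6% and 22.8% of the summed FPKM of the 7 genes in PIF4v3m, against 80.5%, 79.5% and 76.4% in WYG7. The sum itself was 39.3 to 58.7 FPKM in PIF4v3m and 108 to 137 FPKM in WYG7. Other family members are not in these sums.

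**Figure D3:**
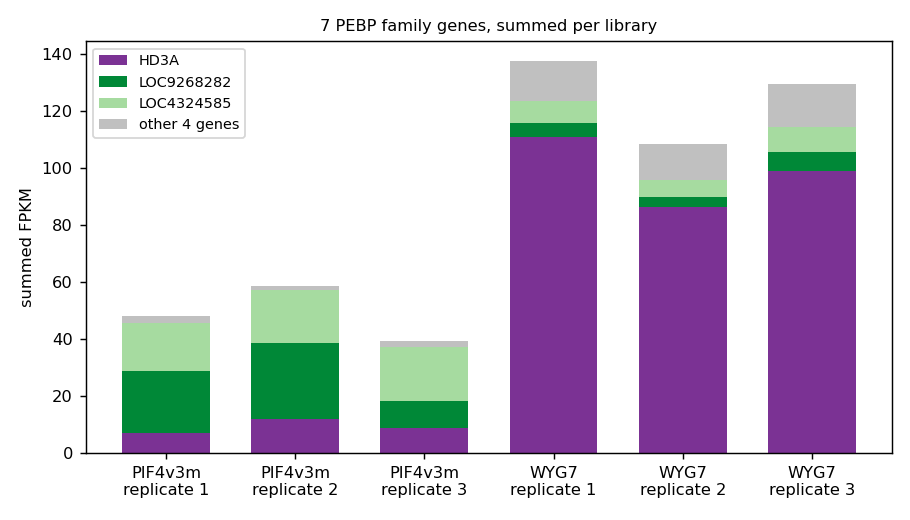
Summed FPKM (vertical axis, from 0) of 7 PEBP family genes in each of the 6 libraries, stacked by gene. HD3A makes up 14.9% to 22.8% of the bar in PIF4v3m libraries and 76.4% to 80.5% in WYG7 libraries.

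HD1 belongs to a larger family of B-box zinc finger proteins. Of 14 listed genes annotated as CONSTANS-like or B-box proteins, 11 were higher and 3 were lower in PIF4v3m. Among all listed genes 45.8% were called higher and 54.1% lower. The median log2 difference of the 14 was 1.63, whereas the median over all listed genes was -0.56. HD1 had the 4th highest log2 difference of the 14 with the offset of 1 FPKM and the 2nd highest with an offset of 0.1 FPKM or by the ratio of means. It remained a minor transcript of the family, with 0.981% to 1.46% of their summed FPKM in PIF4v3m and 0.0839% to 0.213% in WYG7. In each WYG7 library HD1 was number 13 of the 14 by level, and in PIF4v3m it was number 11 or 12. The only member with less RNA in each library was LOC4330144, annotated as B-box protein 20 or 21, at 0.856 to 1.53 FPKM in PIF4v3m and 0.0303 to 0.146 FPKM in WYG7.

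Larger log2 differences than that of HD1 were found for 3 genes of the family with the offset of 1 FPKM, but for only the first of them with an offset of 0.1 FPKM. A gene annotated as CONSTANS-LIKE 9 (LOC4340812), a name whose *Arabidopsis* bearer delays flowering, stood at 48.4, 45.1 and 43.8 FPKM in PIF4v3m, against 0.696, 1.61 and 1.57 FPKM in WYG7 (ratio of means 35.4). The other gene of that annotation (LOC4330574) averaged 36.2 ± 2.19 FPKM in PIF4v3m and 2.86 ± 0.360 FPKM in WYG7 (SD, n = 3 each; ratio 12.6, against 16.2 for HD1). A CO3-like gene (LOC4346474) averaged 38.8 ± 4.01 FPKM in PIF4v3m and 6.31 ± 1.21 FPKM in WYG7 (ratio 6.14). All 3 were more abundant than HD1 in each library of both lines. Of the other higher genes, B-box protein 25 (LOC4329923) averaged 139 ± 24.3 FPKM in PIF4v3m and 30.0 ± 3.17 FPKM in WYG7, CONSTANS-LIKE 16 (LOC4340698) 50.2 ± 5.90 FPKM in PIF4v3m and 15.6 ± 2.80 FPKM in WYG7, and the remaining 5 had log2 differences of 0.95 to 1.85.

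The 3 lower members went against HD1. LOC4345073, annotated as CONSTANS-LIKE 3 or 5, stood at 3.29, 2.54 and 3.22 FPKM in PIF4v3m, against 26.9, 19.4 and 21.0 FPKM in WYG7. LOC4328490, annotated as CO3 or CONSTANS-LIKE 3, averaged 30.0 ± 4.01 FPKM in PIF4v3m and 71.0 ± 3.08 FPKM in WYG7 (SD, n = 3 each), and B-box protein 22 (LOC4327073) averaged 6.96 ± 1.50 FPKM in PIF4v3m and 15.7 ± 1.16 FPKM in WYG7. In each of the 3 the PIF4v3m libraries lay below the WYG7 libraries.

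**Figure D4:**
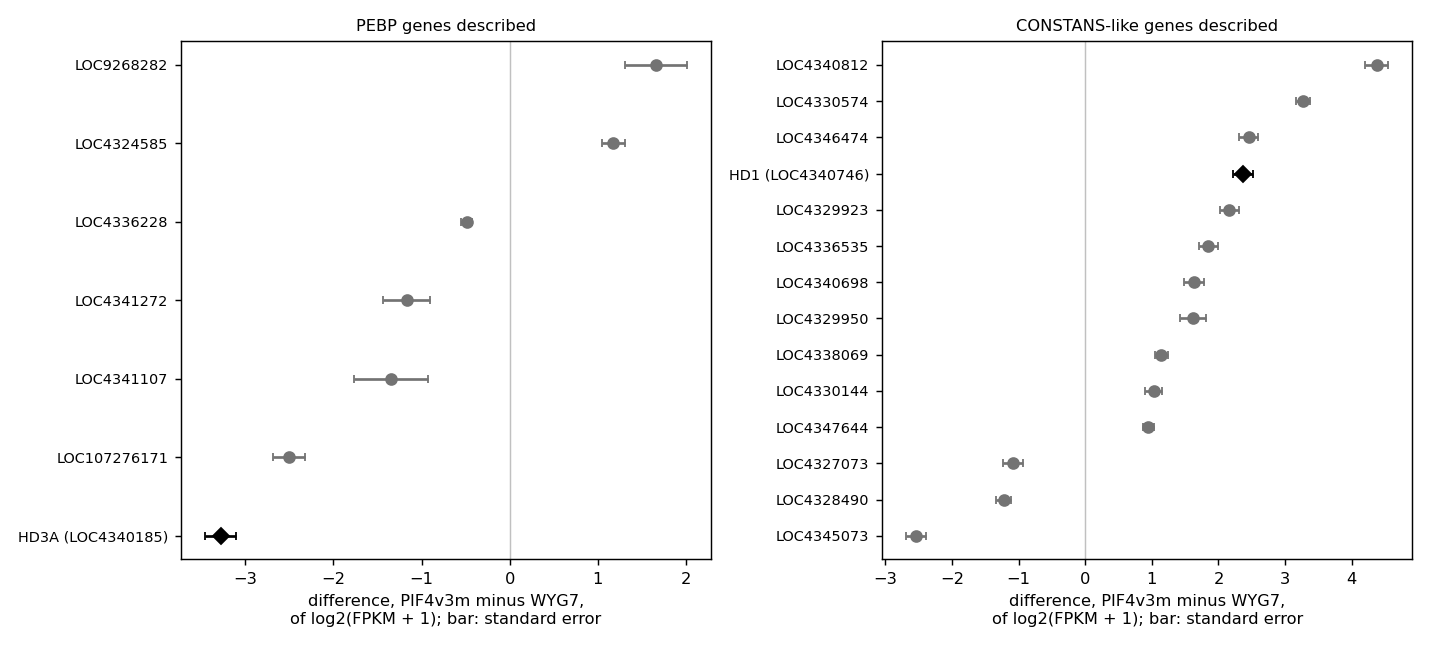
Difference between PIF4v3m and WYG7 in log2(FPKM + 1) (horizontal axis, with standard error) for 7 PEBP genes and 14 listed CONSTANS-like or B-box genes. HD3A and HD1 are shown as black diamonds. On this scale HD3A has the lowest value of the PEBP genes shown (-3.28), and HD1 has the 4th highest of its family (2.37).

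Genes around HD1 and HD3A were followed with a list of 30 genes of photoperiodic flowering. Most of them are the 14 CONSTANS-like or B-box genes and the 7 PEBP genes above. Of the 30 genes, 19 were higher and 11 were lower in PIF4v3m, beside 45.8% higher and 54.1% lower among all listed genes. These counts thus largely repeat those of both families. The MADS-box genes of the list, matched by annotation, were all higher (4 of 4), opposite in direction to HD3A. Which of them respond to florigen in these leaves was not tested. MADS14 (LOC4334140), an APETALA1-like gene that florigen turns on at the apex, stood at 334, 351 and 328 FPKM in PIF4v3m, against 169, 152 and 161 FPKM in WYG7. MADS50 (LOC4331445), a rice relative of SOC1 that promotes flowering, averaged 56.4 ± 2.73 FPKM in PIF4v3m and 27.9 ± 2.01 FPKM in WYG7 (SD, n = 3 each). MADS57 (LOC4330621) had a log2 difference of 0.97 and a gene annotated as AGL104 or AGL66 (LOC107275787) of 2.10. In these leaves MADS14 and MADS50 were thus higher in the line with less HD3A.

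Upstream, 2 genes of the SPA group, which in *Arabidopsis* act with COP1 in the breakdown of CONSTANS protein, were higher together with HD1. SPA1-RELATED 4 (LOC4324727) averaged 62.6 ± 3.90 FPKM in PIF4v3m and 26.6 ± 1.26 FPKM in WYG7, and SUPPRESSOR OF PHYA-105 1 (LOC4339663) 21.3 ± 0.754 FPKM in PIF4v3m and 9.09 ± 0.241 FPKM in WYG7 (SD, n = 3 each). Nuclear transcription factor Y subunit A-4 (LOC4344874), of a complex whose B and C subunits bind CONSTANS-type proteins, averaged 9.29 ± 0.984 FPKM in PIF4v3m and 19.4 ± 0.256 FPKM in WYG7. A gene annotated as probable inactive heme oxygenase 2 (LOC4333033) averaged 9.25 ± 0.369 FPKM in PIF4v3m and 20.0 ± 1.72 FPKM in WYG7. It was listed by its annotation, and nothing here shows that it acts on heading date. EH domain-containing protein 1 (LOC4337342) entered the list only through its symbol EHD1 and is not the heading date gene of that name; without it 10 genes were lower. None of the 30 is a 14-3-3 protein or FD.

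HD1 and HD3A are both annotated to the KEGG map of the plant circadian rhythm, of which 28 genes are counted here. Of these, 21 were higher and 7 were lower in PIF4v3m, and the lower ones include HD3A and 3 other PEBP genes. The shares over all listed genes were 45.8% higher and 54.1% lower. The map also holds both listed cyclic DOF factors, whose *Arabidopsis* relatives repress *CONSTANS* and *FT*. Cyclic DOF factor 2 (LOC9272566) stood at 24.6, 20.2 and 21.9 FPKM in PIF4v3m, against 0.601, 0.648 and 0.387 FPKM in WYG7. Cyclic DOF factor 1 (LOC4348585) stood at 63.1, 57.4 and 54.1 FPKM in PIF4v3m, against 14.6, 10.8 and 11.6 FPKM in WYG7. Both rose in PIF4v3m, as HD1 did. The map was chosen after the data were seen, because both HD1 and HD3A carry it.

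Of 9 listed clock genes, 7 were higher and 2 were lower in PIF4v3m, beside 45.8% higher and 54.1% lower among all listed genes. LHY (LOC4344703), a morning-phased MYB-like factor, stood at 216 to 218 FPKM in PIF4v3m and 19.1 to 24.5 FPKM in WYG7, and PRR73 (LOC4332464), a pseudo-response regulator, at 69.9 to 90.0 FPKM in PIF4v3m and 231 to 241 FPKM in WYG7. The largest increases of the 9 were those of REVEILLE 2 (LOC4336779, log2 difference 5.96) and REVEILLE 1 (LOC4330349, 4.91). Clock genes thus differed between the lines in both directions. The part of time of day in the differences of HD1 and HD3A was not tested.

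Genes without a description, such as hypothetical or uncharacterized proteins, were left out of the search for close profiles. Among the others, cyclic DOF factor 1 was also one of the 5 whose profile over the 6 libraries was closest to that of HD1. The closest was the ubiquitin ligase RHG1A (LOC4336897; distance 0.263, r = 0.996), followed by cadmium-induced protein AS8 (LOC4342386), the riboflavin biosynthesis protein RIBA 2 (LOC4329733), cytosolic fructose-1,6-bisphosphatase (LOC4325071), an enzyme of sucrose synthesis, and cyclic DOF factor 1 (distance 0.353, r = 0.996). Profiles close to that of HD3A were those of an ent-isokaurene hydroxylase-like P450 (LOC112935987; distance 0.537), phytosulfokines 4-like (LOC4332157), acyl transferase 4-like (LOC4337739), wall-associated receptor kinase 4 (LOC4335436) and NRR repressor homolog 1 (LOC4338570; distance 0.652). The 5 distances for HD3A were all larger than those for HD1. Such likeness is mostly that of the difference between the lines: 939 listed genes had r above 0.95 with HD1 and 1033 with HD3A.

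**Figure D5:**
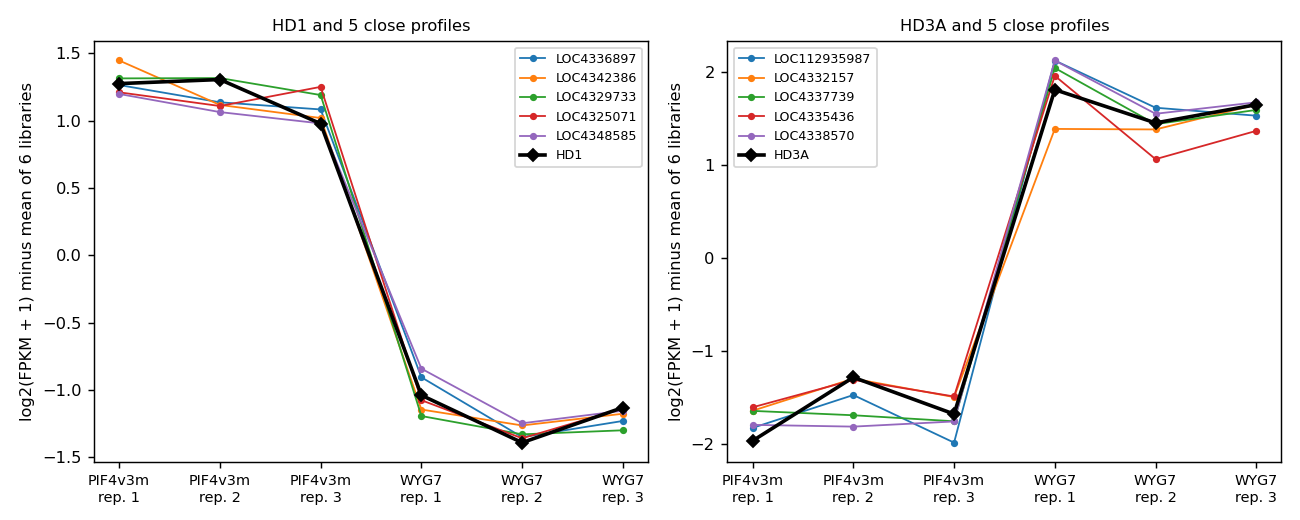
Values of log2(FPKM + 1) minus the mean of the 6 libraries (vertical axis) for HD1 (left) and HD3A (right) in black and for 5 genes with close profiles in colour. The genes beside HD1 are higher in each PIF4v3m library than in any WYG7 library, and those beside HD3A are lower.

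HD1 and HD3A both lie on chromosome 6, with 596 protein-coding genes between them in the RefSeq order. Of 50 protein-coding neighbours examined around each, 3 around HD1 and 4 around HD3A were in the table, where 9.25% of the RefSeq protein-coding genes were listed over all chromosomes. Around HD1, 1 was higher and 2 were lower, the nearest being an H/ACA ribonucleoprotein subunit (LOC4340741), 4 genes away and lower. Around HD3A, 2 were higher and 2 were lower. One of the lower ones was a probable WRKY factor (LOC4340188), 4 genes away, at 0.167 to 0.379 FPKM in PIF4v3m and 1.78 to 3.03 FPKM in WYG7. In these stretches genes of both directions were found.

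Markers of leaf tissue were checked among the listed genes. The 6 listed mesophyll markers were detected in each library and split into 3 higher (the Rubisco small chain and both Rubisco activases) and 3 lower (chlorophyll a-b binding proteins), with a summed level of 11020 to 13802 FPKM in PIF4v3m and 15345 to 16059 FPKM in WYG7. The search for markers of phloem, the tissue in which florigen is made, matched only LOC4324055. It is annotated as phloem protein 2-like A1 in Swiss-Prot and as a lectin in NR. Its level was 4.67 to 6.37 FPKM in PIF4v3m and 10.9 to 13.4 FPKM in WYG7. The search for shoot apex genes matched 4 listed genes by name: MADS14, APETALA2-like proteins 1 and 3, and ULTRAPETALA 1. Of these, 3 were higher and 1 was lower. The 4 summed to 455 to 481 FPKM in PIF4v3m and 229 to 232 FPKM in WYG7, mostly from MADS14. Whether they mark apex tissue in these leaves was not tested. The search for guard cell markers matched only an EPIDERMAL PATTERNING FACTOR-like gene, which is a signalling peptide gene and no guard cell marker, so guard cells could not be followed. No listed marker was at 0 in a library. These markers differed between the lines in both directions, and their part in the differences of HD1 and HD3A was not tested.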

How the data were processed

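RNA-seq was run on leaf RNA of 3 PIF4v3m and 3 WYG7 libraries. The deposited values are FPKM, computed by the authors for each gene in each library. The paper names STAR and Cufflinks for quantification and DESeq2 for calls, whereas StringTie 1.3.0, HISAT2 2.0, Bowtie 0.12.2 and the mouse build mm8 stand in the submitters' processing notes, so the tools behind the FPKM are not settled. All 2995 genes of the table carry an up or down call by the authors, so unchanged genes are not analysed here and a test on the table is not independent of how its genes were chosen. Columns with the authors' fold changes and FDR were not used. Of 26 genes with FPKM above 0 and under 0.5 in each library, 0 showed whole-number ratios to their lowest value (tolerance 0.02), so reads were not recovered from the FPKM. Read totals that the paper states per library were not used here, and the counting error of single values was not estimated.

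Values were compared as log2(FPKM + 1) with limma 3.58.1 under R 4.3.3 (two-sided, with a mean-variance trend and no covariates, Benjamini-Hochberg over genes with a mean FPKM above 0.01, called at an adjusted p under 0.05), checked on simulated data. Nothing in the labels says that replicates were separate plants, so errors measure the spread between these libraries. Gene lists were matched to the Swiss-Prot and NR descriptions and to RefSeq synonyms, for which 2761 gene IDs matched. HD1, HD3A and the lists were chosen with earlier results of these data known. Named genes were HD1 and HD3A, the CONSTANS-like, B-box and PEBP genes, further genes of the flowering list and RefSeq neighbours within 25 genes. The 5 closest profiles of each member, by Euclidean distance among genes with a description, were named too. Clock, marker and KEGG genes named singly were picked after their values were seen. One gene of the table is not reported here: it entered the fit over all genes and was left out of the lists, profiles and neighbours. Sequences were not used here. Alternatives were offsets of 0.1 and 0.01 FPKM, other filters and scalings, no trend, a replicate block and each library left out. Python 3.11.15, pandas 2.3.3 and matplotlib 3.10.9 were used.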

Additional observations from a re-analysis of the deposited data

How the results depend on the processing

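HD1 kept its sign and HD3A its sign under each alternative run. The log2 difference of HD1, 2.37 as reported, was 3.77 and 4.09 with offsets of 0.1 and 0.01 FPKM and 3.99 after each library was rescaled to a common sum over the listed genes, which also makes the offset of 1 smaller against the values. It was 2.57 after quantile normalization and 2.77 after median ratio scaling, and HD3A was at -2.59 after median ratio scaling. These scalings use called genes only, and they moved the median of all log2 differences by -0.39 (sum), 0.23 (quantile) and 0.30 (median ratio), while the smaller offsets moved it by -0.53 and -0.57. Without single libraries HD1 ranged from 2.27 to 2.48 and HD3A from -3.46 to -3.12, the flowering list had 19 genes higher each time and 10 to 11 lower, and all listed genes had 1361 to 1371 higher and 1610 to 1618 lower. Over all listed genes, against 1373 higher and 1619 lower as reported, median ratio scaling gave 1375 higher and 1359 lower, which turns the balance of directions, quantile normalization 1375 and 1550, and a minimum mean of 1 FPKM 1135 and 1303. With a replicate block the differences were 2.37 and -3.28, with 19 and 11 genes of the flowering list and 1372 and 1618 of all listed genes called. Same-numbered libraries deviated from their line means with correlations of -0.068, 0.003 and -0.097, so the numbers were not taken as pairs. Of 670 values for 45 other genes under the alternatives, 667 stayed on their side of the threshold. The 3 that lost their call were MFT1 without PIF4v3m replicate 2 and bHLH84 (LOC4333457) without the same library and without the mean-variance trend. Since the authors had selected the table's genes on these libraries, this stability was close to fixed beforehand. By rank of the log2 difference in the table, HD1 (87th highest as reported) was between 35th and 107th over the other offsets, filters and scalings, and HD3A (35th lowest) between 31st and 202nd. Within the families HD1 was 2nd to 5th and HD3A 1st to 3rd. These ranks were added after seeing the data. The counting error of low FPKM values such as those of HD1 in WYG7 was not estimated.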

Other observations

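Further genes of the KEGG circadian rhythm map also differed between the lines, and were named after their values were seen. A bHLH factor annotated as APG (LOC4334324), on chromosome 3, averaged 0.388 ± 0.136 FPKM in PIF4v3m and 4.04 ± 0.327 FPKM in WYG7 (SD, n = 3 each). The paper places *OsPIL13* on chromosome 3 too, and whether this gene is the edited one was not checked. The bHLH factor annotated as SPATULA in Swiss-Prot and as PHYTOCHROME INTERACTING FACTOR-LIKE 15-like in NR (LOC4340229) averaged 10.7 ± 0.420 FPKM in PIF4v3m and 3.85 ± 0.625 FPKM in WYG7. A TCP factor annotated as TCP14 (LOC4340553) was at 0.413 to 0.534 FPKM in PIF4v3m and 0.0766 to 0.181 FPKM in WYG7. The search for photoreceptor genes matched 3 listed genes by annotation, phototropin-1A, phototropin-1B and cryptochrome DASH. All 3 were higher in PIF4v3m, with log2 differences of 1.07 to 1.77, beside 45.8% higher among all listed genes. Whether cryptochrome DASH acts as a photoreceptor was not examined.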
